A study of Mus musculus with 6 samples.

Results

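The cytosolic ribosomal protein genes were examined in whole hearts of mouse embryos at embryonic day 13.5. Members were the rows of the count table whose deposited symbol is that of a large-subunit protein (Rpl followed by a number), a small-subunit protein (Rps followed by a number), a stalk protein (Rplp0, Rplp1, Rplp2) or Rpsa. Rows named as numbered pseudogenes (-ps) and the S6 kinases were left out. This gave 87 of 45792 rows, 50 for the large and 37 for the small subunit. The rule used names only and no measured value. In GENCODE vM21, 82 members are protein coding and 5 are pseudogenes (Rps3a2, Rps3a3, Rps4l, Rps12l1 and Rps12l2). Fau, Gnb2l1 (also called Rack1) and Rpl36al, which encode ribosomal proteins under other names or as close copies, lie outside the rule and are described apart.

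The study deleted Ino80, the ATPase of a chromatin remodelling complex, in endothelial cells and asked what this did to the growing heart. The 3 control hearts are labelled wild-type and the 3 mutant hearts Tie2Cre;Ino80 fl/fl, all of strain C57BL/6 by the labels, and the paper speaks of mixed backgrounds and defines controls as every other genotype. Tie2Cre recombines in endothelial and endocardial cells and in blood cells that derive from endothelium, and not in cardiomyocytes, whereas RNA came from the whole organ, so a mutant heart held both deleted and undeleted cells. In such bulk RNA, fewer cells of a type and less RNA per cell cannot be told apart.

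Between 28948836 and 89675692 counts on genes were available per heart, and hearts of a group varied by a common coefficient of 0.153, far above counting error for abundant genes. The targeted gene did not check the labels: Ino80 lay between 30.2 and 32.7 counts per M counts (CPM) in the control hearts and between 31.8 and 36.5 CPM in the mutant hearts. The directions below therefore rest on the labels. Cardiomyocyte markers were abundant in every heart, with a mean of log2(CPM + 1) over 16 genes from 10.4 to 10.7.

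A ribosome has a large and a small subunit, each built from ribosomal RNA and many proteins, most of which are needed in equal number. Their mRNAs are among the most abundant of a growing cell, and most begin with a cytosine followed by a tract of pyrimidines (the 5′ terminal oligopyrimidine, or TOP, motif) through which mTOR signalling controls their translation. Most ribosomal protein genes have given rise to many retrocopies elsewhere in the genome, and a few have expressed paralogues with restricted tissues. Inherited partial loss of single ribosomal proteins causes Diamond-Blackfan anaemia, a congenital failure of red cell formation in which heart defects can occur.

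The starts of the genes on which the results turn are shown first, with the pyrimidines near them. RefSeq promoter windows on GRCm38.p6 were matched for 61 members by symbol and 26 had no entry. Each line below gives 40 bases before and 20 bases from the annotated start, on the gene's strand, with the longest run of C or T that comes within 10 bases of the start in capitals where it has at least 5 bases. Where a gene has several annotated starts, the one with the longest run is shown. For Rpl22 the window of this start lies before the GENCODE vM21 gene, at chr4:152325742-152334071. The first 5 are the members with the largest fold changes, followed by Rps27 and Rpl22 each with its paralogue, and by the members with the lowest levels.
Rpl28, chr7:4792925-4792984, plus strand: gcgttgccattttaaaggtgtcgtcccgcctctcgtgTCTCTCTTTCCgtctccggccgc
Rpl18, chr7:45718031-45718090, plus strand: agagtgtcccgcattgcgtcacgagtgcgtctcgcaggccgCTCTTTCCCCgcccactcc
Rpl12, chr2:32961672-32961731, plus strand: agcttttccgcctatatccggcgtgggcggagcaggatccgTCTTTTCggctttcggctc
Rps16, chr7:28350649-28350708, plus strand: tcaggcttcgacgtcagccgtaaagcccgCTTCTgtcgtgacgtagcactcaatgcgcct
Rpl35, chr2:39005112-39005171, minus strand: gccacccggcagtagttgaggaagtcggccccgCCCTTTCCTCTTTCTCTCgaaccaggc
Rps27, chr3:90213629-90213688, minus strand: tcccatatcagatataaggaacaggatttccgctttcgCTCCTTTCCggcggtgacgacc
Rps27l, chr9:66946046-66946105, plus strand: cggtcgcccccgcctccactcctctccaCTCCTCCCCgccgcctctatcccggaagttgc
Rpl22, chr4:152324396-152324455, plus strand: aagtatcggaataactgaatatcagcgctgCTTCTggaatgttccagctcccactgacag
Rpl22l1, chr3:28805468-28805527, plus strand: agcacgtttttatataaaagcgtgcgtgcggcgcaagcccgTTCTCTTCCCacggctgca
Rpl3l, chr17:24727786-24727845, plus strand: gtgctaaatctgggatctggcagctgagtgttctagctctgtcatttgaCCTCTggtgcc
Rpl24, chr16:55966235-55966294, plus strand: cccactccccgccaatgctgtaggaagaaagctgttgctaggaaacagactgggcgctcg

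A run of at least 8 pyrimidines stood near the start of 29 of the 61 matched members (47.5%), against 16.1% of all 27018 genes in the table. A run could lie wholly before the annotated start, as for Rps27l (bases -12 to -4), and so outside the mRNA. The number is therefore not a count of TOP motifs. The runs of the members had a median of 7 bases and reached 21, and Rpl28, Rpl18, Rpl35 and Rps27 are among those with a run of 8 or more, whereas Rpl24 has none of 5. Over the 300 bases of each promoter and on both strands, CCGGAAG was found for 25 of 61 members (41%) against 9.93% of all genes, and GCCATNTT for 13 (21.3%) against 6.96%. CACGTG was found for 6 members (9.84%) against 8.09%, TATAAA for 7 (11.5%) against 15.7%, and CCAAT for 19 (31.1%) against 41.1%. These letters describe the windows and are no evidence of binding.

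In the control hearts the members drew between 3.34% and 3.46% of all counts. The highest levels per transcript length (RPKM, TMM-scaled counts per M counts and kb, mean of 6 hearts) belonged to Rplp1, a stalk protein, at 1531, followed by Rps14 at 1029.9, Rps15 at 938, Rpl41 at 924 and Rps2 at 915. The median over the 81 tested coding members was 526 RPKM, and 71 of them lay within 2-fold of it. The mRNA levels, as counted here, were thus close to each other for most coding members. The lowest were Rpl3l at 0.564 RPKM and Rpl24 at 2.36 RPKM, followed by Rpl7l1 at 31.9, the pseudogene row Rps12l2 at 35.4 and Rps15a at 68.9. The value of Rps15a was computed over a long annotated main transcript of 5130 bases, against a median of 775 bases over the members.

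Rpl24 encodes a core protein of the large subunit, yet its row held 1.66, 2.08 and 1.36 CPM in the control hearts and 1.25, 1.83 and 1.40 CPM in the mutant hearts. An annotated read-through gene at the same place, Gm28037, shares 68.1% of the 76-base windows of the Rpl24 transcript and held 0 counts in all 6 hearts. How reads that fall on several genes were counted is not given in the sources used here, so the level of Rpl24 is uncertain.

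The comparison of genotypes gave small positive differences spread over most members. Of 86 members that passed the filter on low counts, 70 had a positive log2 fold change (mutant over control), with a median of 0.097. Over all 17125 tested genes the median was -0.0017, and 49.7% were positive. The large subunit had 43 of 49 tested members positive (median 0.096), and the small subunit 27 of 37 (median 0.10). All 5 pseudogene rows count to the small subunit by name, and 1 of them was positive (median -0.20). Over the 81 tested coding members of both subunits, 69 were positive (median 0.10). By edgeR's quasi-likelihood test, 0 members passed an adjusted p of 0.05 in either direction, as did 0% of all genes higher and 0% lower. The smallest adjusted p of a member was 0.118, and that of any gene was 0.0533. At an unadjusted p under 0.05, 8 members were higher (9.30%) and 0 lower, against 9.48% of all genes higher and 9.98% lower, so the share of members that were higher was close to the background. Every mutant heart lay above every control heart for 20 members, against 14.3% of all genes, and below for 0 members, against 12.8%. DESeq2 called 2 members higher, Rpl28 and Rpl18, and 0 lower, against 2.63% of the genes it tested higher and 3.22% lower.

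**Figure D1:**
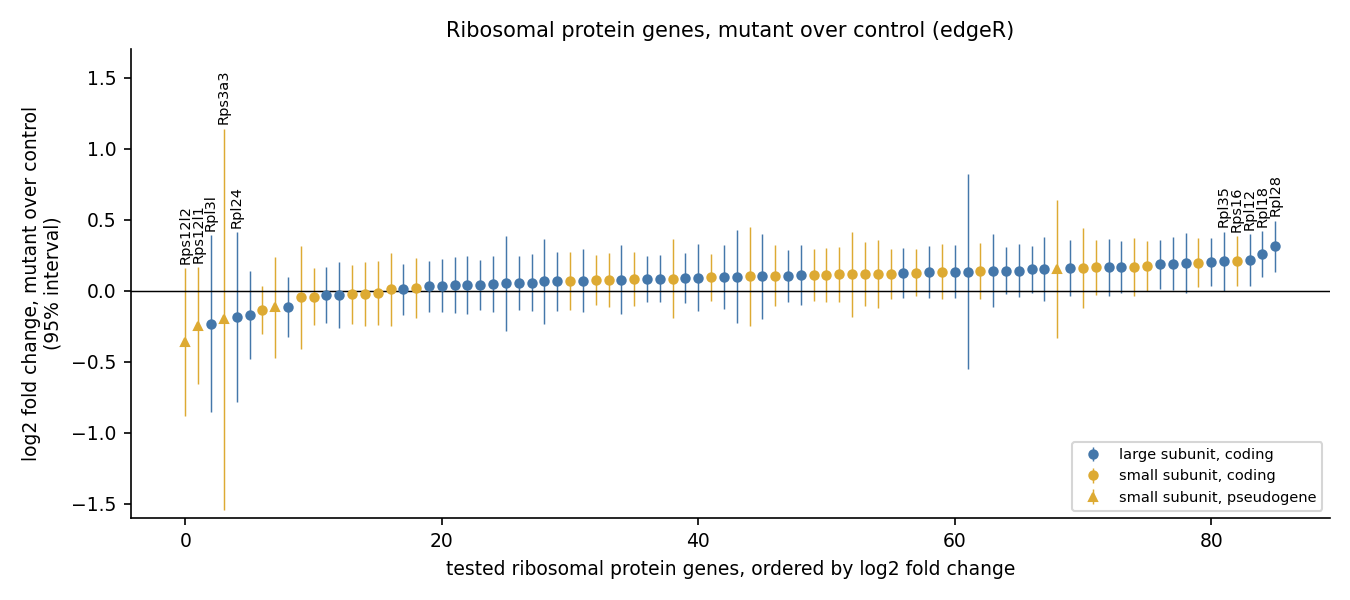
Log2 fold change (mutant over control, edgeR) of each of the 86 tested ribosomal protein genes, ordered by its value on the x axis, with its 95% interval. Colours mark the subunit and triangles the pseudogene rows; the points run from -0.36 for Rps12l2 to 0.31 for Rpl28, 70 of them lie above 0, and Rps3a3 and Rpl29 have far wider intervals than their neighbours.

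Rpl28, a large-subunit protein (ENSMUSG00000030432.10, chr7:4792874-4795066), held 268, 285 and 294 CPM in the control hearts and 343, 373 and 335 CPM in the mutant hearts. All mutant hearts were above all control hearts. The log2 fold change was 0.31 (SE 0.080, 95% interval 0.13 to 0.49), with an adjusted p of 0.118 by edgeR and of 0.00936 by DESeq2. Rpl28 overlaps Ube2s at this place, which shares 10.7% of its transcript windows and held 152 to 173 CPM in the control and 184 to 201 CPM in the mutant hearts, so the counts of the neighbours may not be fully separate.

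Rpl18, whose gene has been found mutated in Diamond-Blackfan anaemia, held 244, 265 and 254 CPM in the control and 303, 310.1 and 299.6 CPM in the mutant hearts, again without overlap. Its log2 fold change was 0.26 (SE 0.071), with an adjusted p of 0.131 by edgeR and 0.0139 by DESeq2. Genes elsewhere share 65.1% of the transcript windows of Rpl18. Rpl12, which sits at the base of the stalk, held 335, 377 and 365 CPM in the control and 429, 418 and 402 CPM in the mutant hearts (log2 fold change 0.21, SE 0.080, adjusted p 0.204 by edgeR). Rps16, a small-subunit protein, held 305, 311 and 336 CPM against 368, 379 and 355 CPM (log2 fold change 0.21, SE 0.076, adjusted p 0.196 by edgeR). The genotypes did not overlap for either gene, and neither passed the test.

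The fifth, Rpl35, which lies near the exit of the nascent chain, held 78.1, 76.3 and 85.0 CPM against 84.7, 104 and 88.0 CPM, so that mutant 1 lay just below control 3. Its unadjusted p was 0.0532 by edgeR. Wdr38, annotated at the same place, shares 54.8% of the Rpl35 transcript windows and held at most 0.249 CPM, so the level of Rpl35 is uncertain. The 8 members with an unadjusted p under 0.05 were Rpl28, Rpl18, Rpl12 and Rps16 together with Rpl36a, Rps28, Rpl10a and Rpl21. The log2 fold changes of the last 4 lay between 0.19 for Rpl10a and 0.20 for Rpl36a, and their adjusted p between 0.192 and 0.254 by edgeR. For each of these 4 genes the lowest mutant heart was above the highest control heart, by 420.1 against 391 CPM for Rpl10a and by 184 against 173 CPM for Rpl36a. Genes elsewhere share 84.6% of the transcript windows of Rpl36a, 47.2% of Rps28, 87.6% of Rpl10a and 46.8% of Rpl21.

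The lower end held rows of low level and pseudogene rows. Rps12l2 was at 16.8, 12.1 and 16.4 CPM in the control and 8.14, 12.4 and 15.04 CPM in the mutant hearts (log2 fold change -0.36, SE 0.23, adjusted p 0.395 by edgeR). Rpl3l (0.615 to 0.957 CPM over the 6 hearts) and Rpl24 (1.25 to 2.08 CPM) had log2 fold changes of -0.23 (SE 0.27) and -0.18 (SE 0.26). Of the coding members at higher levels, Rpl35a was lowest. It held 226, 267 and 218 CPM against 185, 254 and 193 CPM, a log2 fold change of -0.17 (SE 0.14, adjusted p 0.498 by edgeR), and the genotypes overlapped.

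The share of all counts that fell on the 87 genes was 3.34%, 3.46% and 3.36% in control hearts 1 to 3 and 3.60%, 3.75% and 3.86% in mutant hearts 1 to 3. The groups did not overlap, with means of 3.39% ± 0.064 and 3.74% ± 0.13 (SD, n = 3 each). Once the totals were scaled by TMM, which corrects for differences in library composition, the shares were 3.28%, 3.60% and 3.50% in the control and 3.49%, 3.69% and 3.82% in the mutant hearts, and the groups overlapped. The difference between the means went from 0.351 to 0.209 percentage points. The other large blocks of counts also differed between hearts. Mitochondrially encoded genes took 6.31% to 7.86% of the counts in the control and 6.12% to 7.11% in the mutant hearts, and haemoglobin genes 0.942% to 3.77% and 0.661% to 1.15%. With both blocks left out, the mutant mean share exceeded the control mean by 0.304 points. The part of these blocks in the member difference was not tested.

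**Figure D2:**
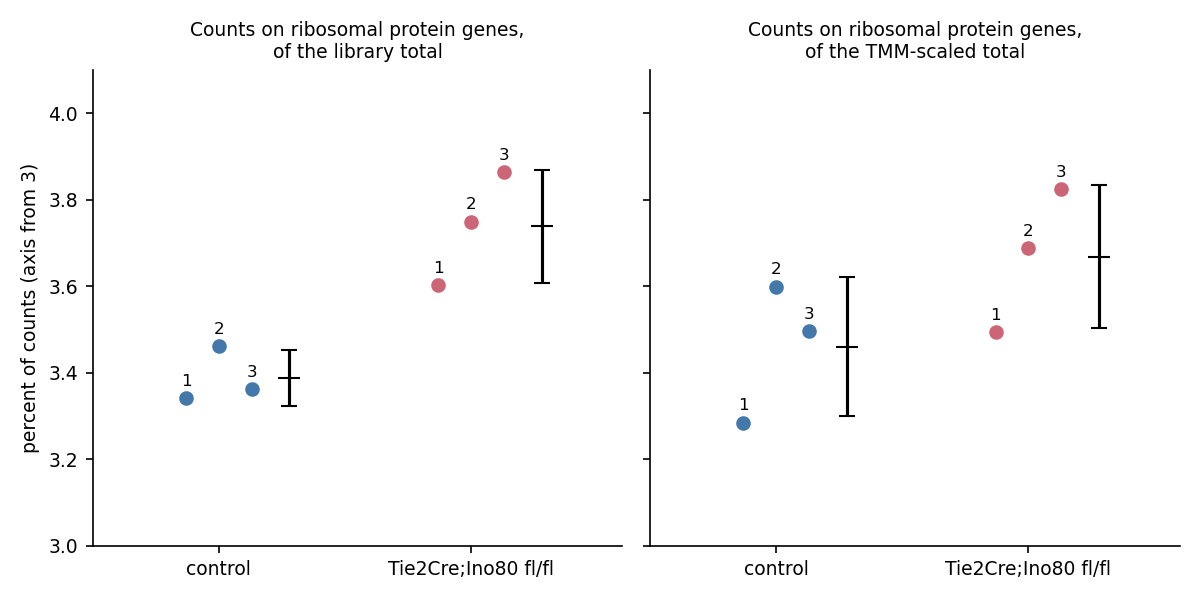
Percent of counts on the 87 ribosomal protein genes in each heart (numbered points), of the library total on the left and of the TMM-scaled total on the right, with the group mean and SD in black; the y axis starts at 3. The groups are apart on the left (3.46 against 3.60 at the closest) and overlap on the right.

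Deviations were shared by most members within a heart. Measured as the median deviation of the members from their own mean over the 6 hearts (log2 CPM), the control hearts were at -0.11, -0.00089 and -0.032 and the mutant hearts at -0.016, 0.058 and 0.098. Mutant 1, the deepest library, lay below control 2. In control 1 only 12 of the 86 tested members were above their own mean, and in mutant 3 there were 74. The median correlation between pairs of members, over the 6 hearts and after the group means were removed, was 0.44, which describes hearts that are shared by all points. Without control 1 the median log2 fold change of the members was 0.069 with 64 of 87 positive, and without mutant 3 it was 0.063 with 58 of 86 positive. It was positive in all 6 fits that left out a heart, and 0 members passed the adjusted threshold in any of them.

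**Figure D3:**
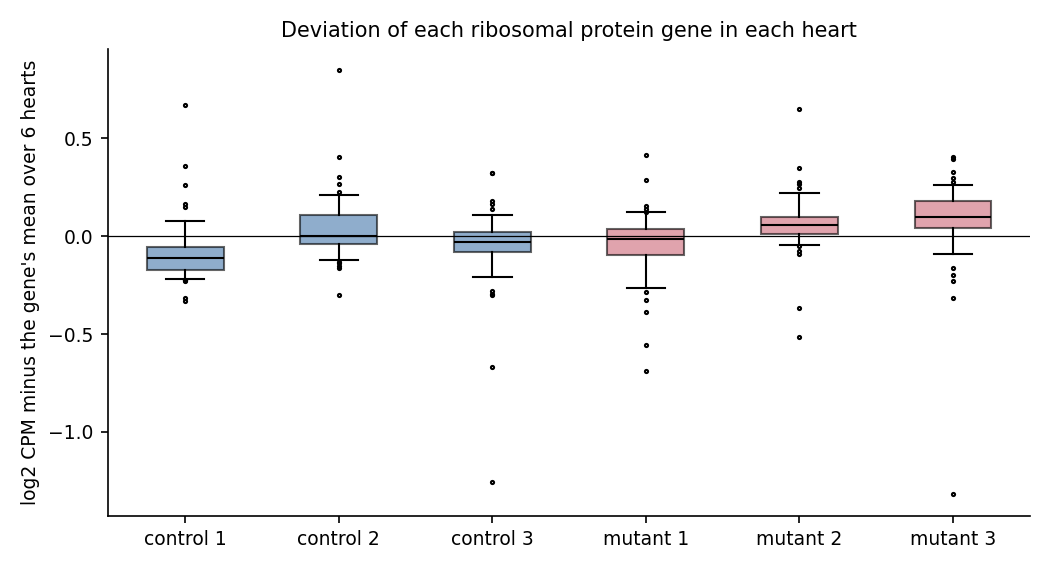
Deviation of each tested ribosomal protein gene from its own mean over the 6 hearts (log2 CPM, y axis) in each heart; boxes hold the middle 50%, the line is the median, whiskers reach the 5th and 95th percentile and dots lie beyond. Medians run from -0.11 in control 1 to 0.098 in mutant 3, and mutant 1 at -0.016 lies within the range of the control hearts.

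The size of this difference depended on how transcript length was treated. Other short transcripts had mostly negative values: 369 of 887 other coding genes with a main transcript under 1000 bases had a positive log2 fold change (41.6%, median -0.043), and of the 125 of them at 100 CPM or more, 39 were positive (31.2%, median -0.16). By heart, the median deviation of other coding genes of 500 to 1000 bases was -0.048, 0.058 and 0.033 in the control and -0.090, -0.0091 and 0.030 in the mutant hearts, so the genotypes overlapped and mutant 1 was lowest. The members, mostly short and abundant, had the opposite sign, with 66 of 77 positive at 100 CPM or more (median 0.10). When a smooth trend of log2 CPM on transcript length was taken out of each heart, the median log2 fold change of the members became 0.19, with p under 0.05 before adjustment for 49 higher members of 86 and for 0 lower ones, and 0 past the adjusted threshold. In the same fit, 9.97% of all genes were higher and 10.9% lower with p under 0.05 before adjustment. The trend was fitted over all tested genes with an annotated length, so the lower values of other short genes entered it. Which genes set its short end was not tested.

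The stalk proteins recruit elongation factors to the ribosome. Rplp0 held 949.6, 1222 and 1342 CPM in the control and 1056, 1265 and 1319.8 CPM in the mutant hearts (log2 fold change 0.052, SE 0.15). Rplp1 held 650.5, 755 and 806 CPM against 689.9, 763 and 919 CPM (0.10, SE 0.13), and Rplp2 held 295, 322 and 348 CPM against 326, 356 and 391 CPM (0.15, SE 0.099). For all 3 genes the genotypes overlapped and the spread within a group was larger than the difference, apart from Rplp2, whose means of 322 ± 26.4 and 358 ± 32.6 CPM (SD, n = 3 each) lay about 1 SD apart. Without control 1 or without mutant 3, the log2 fold change of Rplp0 was negative.

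Rpl5 and Rpl11 form a particle with 5S ribosomal RNA that, when ribosome assembly stalls, binds MDM2 and stabilizes p53. Rpl5 held 809, 864 and 837 CPM in the control and 855, 867 and 860.0 CPM in the mutant hearts (log2 fold change 0.041, SE 0.077, adjusted p 0.794 by edgeR). Rpl11 held 332, 379 and 340.4 CPM against 396, 409 and 368 CPM (0.16, SE 0.086, adjusted p 0.341). Both overlapped between genotypes, Rpl11 only through control 2. Of 16 genes known as p53 targets, 6 had a positive log2 fold change (median -0.048), 0 passed edgeR's adjusted threshold, and DESeq2 called 4 lower and 0 higher. The 2 with the smallest p were Ccng1, at 276, 297 and 261 CPM in the control and 188, 204 and 188 CPM in the mutant hearts, and Perp, at 126, 174 and 155 CPM against 99.8, 106 and 114 CPM. Their log2 fold changes were -0.53 and -0.51, with adjusted p of 0.0645 and 0.10 by edgeR.

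Of the 19 members in the list of Diamond-Blackfan genes, 14 had a positive log2 fold change (median 0.10), 2 were higher at an unadjusted p under 0.05 (Rpl18 and Rps28) and 0 lower. The 2 genes are 10.5% of the list, close to the 9.48% of all genes that were higher. Rps19, the gene most often affected in patients, held 314, 326 and 327 CPM in the control and 325, 350.1 and 369 CPM in the mutant hearts, a log2 fold change of 0.11 (SE 0.078, adjusted p 0.450 by edgeR). Only mutant 1 fell within the control range. The 5 with negative values were Rpl35a, Rpl15, Rps24, Rps27 and Rps7, from -0.17 to -0.015. Their genotypes overlapped in each case, and for Rps7 the control hearts alone covered 506 to 613 CPM. Rps26, whose protein contacts the mRNA at the exit channel, lay between 369 and 380.2 CPM in the control hearts and between 357 and 434 CPM in the mutant hearts.

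The paralogues were expressed at different levels beside their canonical genes. Rpl3l, a muscle-restricted form of Rpl3 that appears in the heart after birth, held 0.683, 0.885 and 0.957 CPM in the control and 0.735, 0.776 and 0.615 CPM in the mutant hearts. Per length this was 0.0970% of Rpl3, which held 673, 745 and 779 CPM against 818, 806 and 891 CPM. The log2 ratio of Rpl3l to Rpl3 was lower in every mutant heart than in any control heart, with a difference of -0.44 between the means (exact two-sided permutation p = 0.1, the smallest that 3 hearts against 3 allow, and 0.6 after Benjamini-Hochberg adjustment over 6 pairs). In this ratio Rpl3 was itself higher in all mutant hearts. Genes elsewhere share 83.2% of the transcript windows of Rpl3 and 0% of those of Rpl3l.

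Rps27l, a close relative of Rps27 and a known p53 target, stood at 17.9% of Rps27 per length. It held 81.0, 84.9 and 78.7 CPM in the control and 69.0, 78.7 and 75.0 CPM in the mutant hearts, against 278, 336 and 295 and 275, 298 and 321 CPM for Rps27. The difference in log2 ratio, mutant minus control, was -0.12 (exact permutation p = 0.2). Genes elsewhere share 98.5% of the transcript windows of Rps27 and 11.6% of those of Rps27l. The relative level therefore depends on how reads that match several genes were counted. Rpl22l1, which can stand in for Rpl22 and is regulated by it, stood at 14.2% of Rpl22 per length, with 41.5, 46.6 and 33.9 CPM in the control and 37.6, 50.2 and 42.8 CPM in the mutant hearts, and the ratio differed by 0.016 (exact permutation p = 1). Rpl7l1, at 5.01% of Rpl7, the pseudogene row Rps4l, at 9.75% of Rps4x, and Rpl36al, at 53.5% of Rpl36a, gave differences in log2 ratio of 0.0090, 0.085 and -0.024 (exact permutation p between 0.8 and 1). Rpl36al and Rpl36a were each higher in all mutant hearts, from 97.1 to 99.7 against 107 to 116 CPM and from 158 to 173 against 184 to 198 CPM, so their ratio stayed within the spread of the hearts.

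Rpl39l, the testis-enriched copy of Rpl39, was the only member that did not pass the filter. It held 4, 0 and 7 counts in the control and 23, 20 and 10 counts in the mutant hearts, or up to 0.216 CPM and 0.249 to 0.470 CPM. Without the filter its adjusted p was 0.258 by edgeR.

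Some rows divided the hearts across the genotypes. Rps3a3, an intronless copy of Rps3a1 (chr13:108670603-108671397), was at 235 and 266 CPM in control 1 and 2 and at 61.9 CPM in control 3, and at 197 and 233 CPM in mutant 1 and 2 and 59.3 CPM in mutant 3, a 4.48-fold range. Rps3a2, a second copy, had its lowest values in the same 2 hearts (271 and 284 CPM), and Rps3a1 its highest (761 and 816 CPM). The 3 rows added up to 1250.4, 1402 and 1094 CPM in the control and 1196, 1248 and 1159 CPM in the mutant hearts, a 1.28-fold range. The 3 rows share stretches of sequence of a read's length, so some reads match more than one of them.

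Rps12l1, a copy of Rps12, was at 83.2 to 86.4 CPM in the control hearts, at 59.0 and 59.8 CPM in mutant 1 and 2 and at 96.8 CPM in mutant 3. Rps12 itself was at 377 to 395 CPM and at 409 to 469.7 CPM, without overlap. Genes elsewhere share 100% of the transcript windows of Rps12l1 and 89.5% of those of Rps12. The levels of these 2 rows therefore depend on how reads that match several genes were counted. Rps4l ranged from 72.0 to 88.0 CPM in the control hearts and held 97.9, 56.3 and 106 CPM in the mutant ones. Rpl29, a coding gene (chr9:106429454-106431568), was at 238, 229 and 125 CPM in the control and at 135, 253 and 263 CPM in the mutant hearts, so that 1 heart of each genotype held about as little as the other. It was singled out after its values were seen. In 8 of the 86 members the highest heart exceeded the lowest by over 1.5-fold, and the median over members was 1.23-fold.

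**Figure D4:**
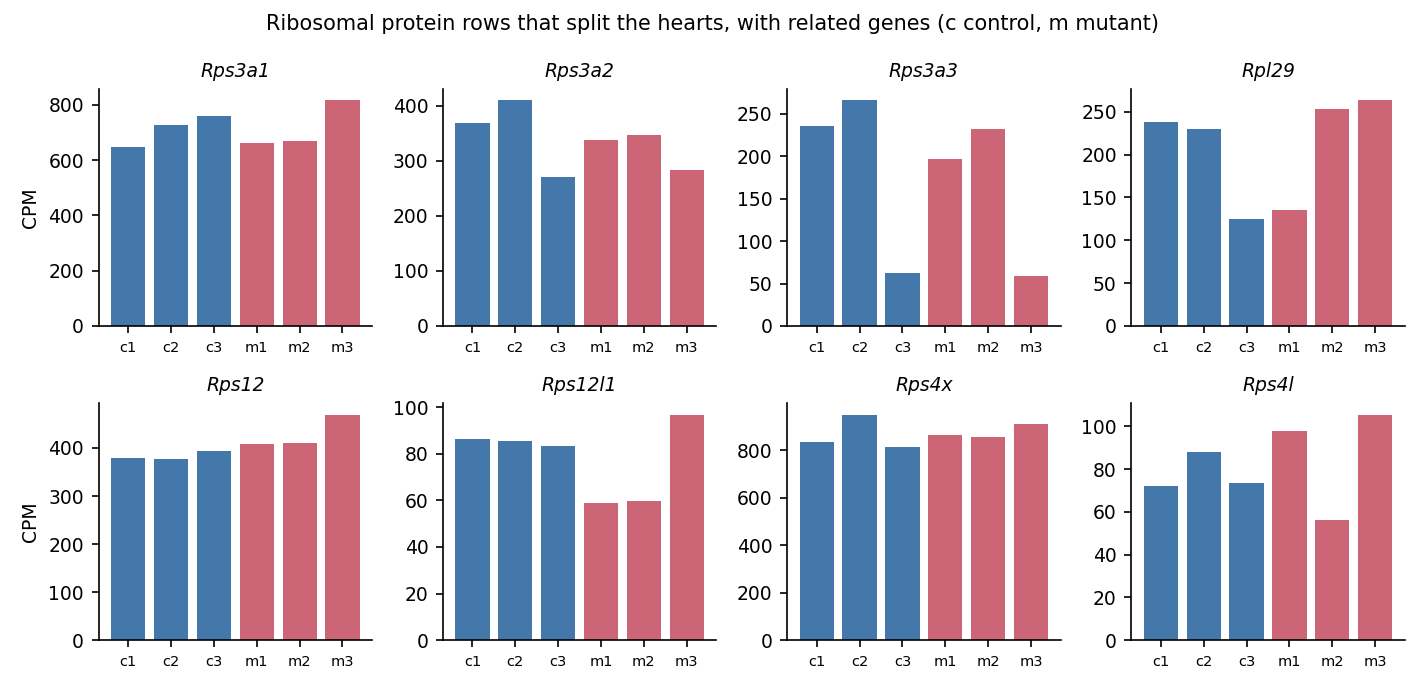
CPM (y axis, from 0) in control hearts c1 to c3 and mutant hearts m1 to m3 for the rows that divide the hearts and for genes related to them. Rps3a3 is low in c3 and m3, Rpl29 in c3 and m1, Rps12l1 in m1 and m2 and Rps4l in m2. Rps12, which lies higher in every mutant heart, has a 1.25-fold range over the hearts and Rps4x a 1.17-fold range.

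Sharing of sequence with other genes was the rule for these genes. At least 1 window of 76 bases, the read length, was shared with a gene elsewhere for 83 of 87 members, and for 35 of them more than 50% of windows were (median 45.3%). With a gene annotated at the same place, 11 members shared windows. Among these were Rpl24, Rpl28 and Rpl35, as well as Rps10 (51.2%) and Rpl5 (44.6%). The medians were close to each other across classes of sharing. The median log2 fold change was 0.088 over the 13 coding members with under 10% of windows shared. It was 0.11 over the 35 with 10 to 50%, and 0.10 over the 33 with 50% or more. By edgeR, 8 members were higher at an unadjusted p under 0.05 (9.30%, against 9.48% of all genes). Of these, 0, 5 and 3 fell in the classes, in the same order. The 217 rows named as numbered pseudogenes of ribosomal proteins behaved otherwise. Of the 152 that were tested, 134 had a negative log2 fold change (median -0.32), and DESeq2 called 9 lower and 0 higher. At an unadjusted p under 0.05 by edgeR, 40 rows were lower and 0 higher, against 9.98% of all genes lower and 9.48% higher. In sum they held 0.797%, 0.805% and 0.736% of the counts in the control and 0.650%, 0.711% and 0.853% in the mutant hearts, with overlap. Whether reads of the coding genes were divided differently in the hearts was not tested.

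Among the ribosomal proteins outside the rule, Fau, which encodes ribosomal protein S30, held 213, 217 and 249 CPM in the control and 242, 263 and 273 CPM in the mutant hearts (log2 fold change 0.20, SE 0.090, adjusted p 0.274 by edgeR). Gnb2l1, the scaffold protein on the small subunit, held 699, 791 and 829 against 736, 754 and 866 CPM (0.022, SE 0.10). Rsl24d1, an assembly factor related to Rpl24, held 44.8 to 47.8 against 43.6 to 45.6 CPM (-0.045, SE 0.070).

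The rest of the translation machinery was read from lists beside the members. Elongation factors and other genes with TOP mRNAs had 13 of 16 positive log2 fold changes (median 0.11), 0 past edgeR's adjusted threshold and 2 called higher by DESeq2, Eef1g and Hnrnpa1. Eef1g, a subunit of the elongation factor that reloads eEF1A, held 439.6, 418 and 393 CPM in the control and 529, 512 and 517 CPM in the mutant hearts (log2 fold change 0.32, SE 0.078, adjusted p 0.110 by edgeR and 0.0023 by DESeq2). Hnrnpa1, an RNA-binding protein, held 688, 627 and 607 CPM against 826, 804 and 768 CPM (0.32, SE 0.085). Neither gene overlapped between genotypes.

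Ribosome biogenesis genes had 51 of 72 positive (median 0.056), and 0 were called by either tool. At an unadjusted p under 0.05 by edgeR, 5 were higher (6.94%, against 9.48% of all genes) and 0 lower. Fbl, which methylates ribosomal RNA, held 55.8 to 60.9 CPM in the control and 65.9 to 73.2 CPM in the mutant hearts, and Nop56, of the same particle, 62.2 to 71.2 and 77.6 to 79.5 CPM. Initiation factors had 16 of 28 positive (median 0.061). The 2 with the smallest p went opposite ways: Eif3j1 held 78.4 to 100.5 CPM against 66.7 to 75.1 CPM and was called lower by DESeq2, and Eif3g 75.7 to 77.1 against 80.3 to 90.1 CPM. All 7 tested hosts of small nucleolar RNAs, of which Gas5 also carries a TOP start, were positive (median 0.20). Gas5 held 59.2 to 66.1 CPM in the control and 68.6 to 74.2 CPM in the mutant hearts, and Snhg8 8.89 to 9.46 CPM and, in every mutant heart, at least 10.8 CPM.

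Of 15 regulators of growth and of TOP translation, 9 were positive (median 0.051). At an unadjusted p under 0.05 by edgeR, 0 were lower and 2 higher (13.3%, against 9.48% of all genes). These were Rps6kb2, an S6 kinase, at 16.3 to 19.3 CPM in the control and 21.1 to 23.3 CPM in the mutant hearts, and Mycn, at 46.4 to 58.2 and 57.6 to 61.4 CPM, which overlapped. Neither passed edgeR's adjusted threshold or was called by DESeq2.

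The proteins of the mitochondrial ribosome lay on the other side of 0. Of 76 genes, 17 had a positive log2 fold change (median -0.11), and neither tool called any. At an unadjusted p under 0.05 by edgeR, 9 were lower and 0 higher, against 9.98% of all genes lower and 9.48% higher. Mrps17 held 54.3 to 65.5 CPM in the control and 47.5 to 51.6 CPM in the mutant hearts, and Mrps33 57.6 to 64.8 and 51.8 to 55.4 CPM. The nuclear genes of the respiratory chain had 3 of 83 positive (median -0.25), and DESeq2 called 4 lower and 0 higher. Cox8b held 28.8, 54.1 and 49.3 CPM against 21.5, 19.6 and 21.9 CPM, and Ndufb10 127, 169 and 181 against 102, 121 and 115 CPM.

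**Figure D5:**
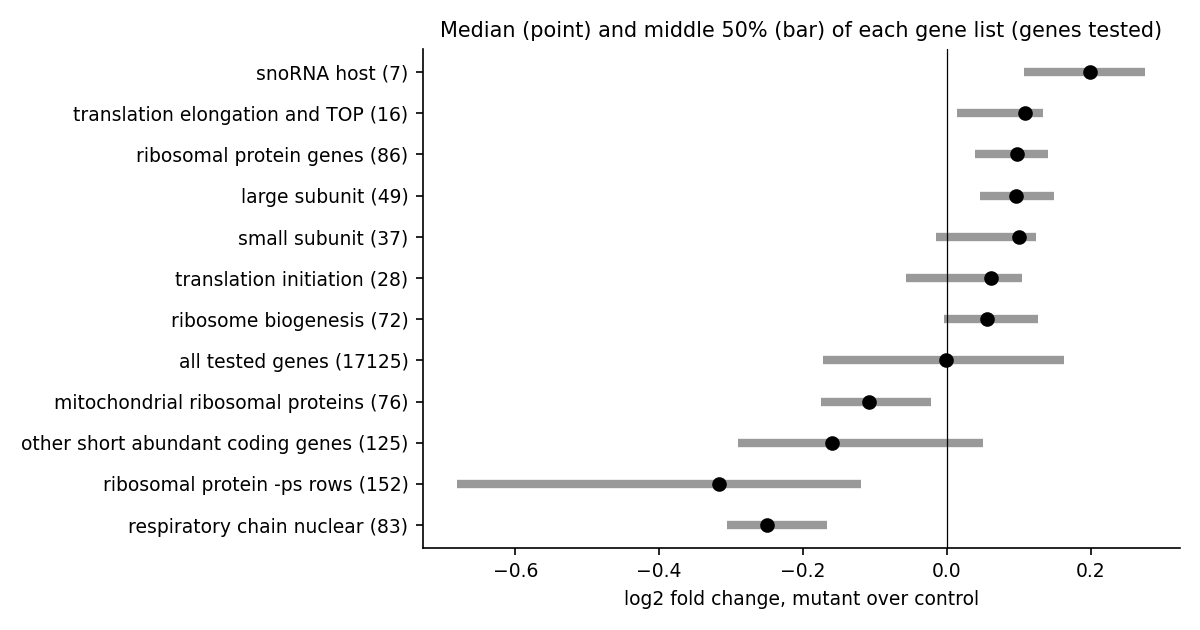
Median (point) and middle 50% (bar) of the log2 fold change, mutant over control, over the tested genes of each list, whose number is in brackets. The cytosolic ribosomal proteins sit at 0.097 beside the elongation and TOP list at 0.11, and the mitochondrial ribosomal proteins, the respiratory chain and the -ps rows lie below 0.

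Markers of the cell types of the heart were read in the same libraries. Cardiomyocyte markers had 4 of 16 positive log2 fold changes (median -0.16), and their mean log2(CPM + 1) was 10.4, 10.5 and 10.7 in the control and 10.4, 10.5 and 10.5 in the mutant hearts. DESeq2 called 3 of them higher and 1 lower. Pln, a regulator of the calcium pump, held 1847, 2369 and 1786 CPM in the control and 1359.7, 1317 and 1451 CPM in the mutant hearts, and Myl7, an atrial myosin light chain, 262, 207 and 319 against 360.4, 541 and 369.5 CPM. Endothelial markers had 4 of 11 positive (median -0.032), from 6.44 to 6.68 and from 6.48 to 6.52, and DESeq2 called 2 lower and 0 higher. These were Esam, a junction protein, at 62.2 to 73.7 CPM in the control and 51.2 to 54.6 CPM in the mutant hearts, and Cd34, at 115 to 151 and 101 to 107 CPM. Erythroid markers had 3 of 12 tested positive (median -0.78) and ranged from 5.97 to 6.91 and from 6.00 to 6.60. In the last list the embryonic globins ran opposite to the median, with Hbb-bh1 at 1.06 to 3.05 CPM in the control and 14.0 to 16.5 CPM in the mutant hearts and Hba-x at 6.98 to 39.1 and 76.7 to 118 CPM, both called higher by DESeq2. Fibroblast and epicardial markers had 6 of 11 positive (median 0.0046), with 1 called higher and 2 lower by DESeq2. Upk3b, of the epicardium, held 36.0 to 46.6 CPM in the control and 55.7 to 66.8 CPM in the mutant hearts, and Postn, a matrix protein, 509 to 601 and 387 to 426 CPM. Macrophage markers had 6 of 10 positive (median 0.16) and 0 DESeq2 calls, with C1qb at 9.33 to 10.7 and 7.73 to 8.32 CPM and Cx3cr1 at 7.73 to 10.3 and 10.6 to 11.6 CPM. The liver markers were near 0, with a mean of 0.558 to 0.768 in the control and 0.652 to 0.705 in the mutant hearts, and Apob was at 0 to 0.136 and 0.329 to 1.16 CPM and Ttr at 0.289 to 0.494 and 0.188 to 0.239 CPM, with 1 liver gene called higher and 0 lower by DESeq2. Of these lists, 0 genes passed edgeR's adjusted threshold. The part of cell mixture in the ribosomal protein difference was not tested.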

How the data were processed

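RNA of 6 whole hearts, 3 of control and 3 of Tie2Cre;Ino80 fl/fl embryos, was sequenced. The authors deposited raw counts per gene, made from 76 bp paired-end reads mapped with STAR 2.4.2a to GRCm38 with GENCODE vM6 and counted with summarizeOverlaps, without normalization. The overlap mode and strand setting are not given in the sources used here. The second deposited table holds the authors' own DESeq2 comparison (mean, log2 fold change, p-values), of which only the gene symbols were used.

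Low counts were removed with filterByExpr (count of 10, total of 15 at least) and genes were tested in R 4.3.3 with edgeR 4.0.16 (TMM scaling, quasi-likelihood fit, condition as the only term), with Benjamini-Hochberg adjustment over all 17125 genes and a threshold of 0.05. DESeq2 1.42.0 was an alternative. SE is the log2 fold change divided by the square root of F. The study used litter mate controls and mutants of several litters, but the labels do not say which hearts shared a litter, and p-values measure the spread between these hearts. Transcript lengths and shared windows were taken from GENCODE vM21 on GRCm38, promoters from RefSeq (GRCm38.p6). For paralogue ratios an exact two-sided permutation test was used. The steps were tested on simulated counts.

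The members and lists were chosen with earlier results of these data known. Named were the genes of the pairs and of the stalk, 5S and Diamond-Blackfan lists, the 5 largest changes in each direction, the 5 highest and 5 lowest RPKM, the untested member, the proteins outside the rule, and from other lists the 2 genes with the smallest p. Values of 1 further gene are left out. Others were named after their values were seen, namely Rpl10a, Rpl21, Rpl29, Rps12, Rps3a1 and Rps3a2. Alternatives were other scalings, filters and thinning, DESeq2, length and GC offsets, the replicate block and leaving out each heart.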

Additional observations from a re-analysis of the deposited data

How the results depend on the processing

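In all 12 alternatives over the 6 hearts and in the 6 fits without 1 heart, the median log2 fold change of the ribosomal protein genes stayed positive and 0 members were called lower. edgeR called 0 members higher in each of its settings, and DESeq2 called 2. The median (0.097) became 0.15 with library totals alone, where that of all genes was 0.055, 0.19 with the length offset, and 0.19 with the length offset and replicate block, and members higher at an unadjusted p under 0.05 (8) became 27, 49 and 46. Without 1 heart that number ran from 2 to 12 and the median from 0.063 to 0.13. Lower at an unadjusted p under 0.05 were 1, 1 and 2 members without control 3, mutant 2 and mutant 3. The share of all genes higher at this p was taken only for the reported fit (9.48%) and the length offset (9.97%). In the other settings the counts of members have no such background beside them. With the replicate block alone the median was 0.097, 0 members were called, and 7 were higher at an unadjusted p under 0.05. Over all genes edgeR then called 1 higher and 13 lower. The labels do not say that a number marks a litter. The hearts were therefore not taken as paired. The correlation of deviations between same-numbered hearts was -0.0031, -0.12 and -0.25 over 10180 genes. Over the ribosomal protein genes alone it was 0.11, 0.41 and 0.62, although control 1 correlated best with mutant 2 (0.61). Deviations from a mean of 3 hearts are tied to each other within a group. These correlations therefore cannot decide whether hearts shared a litter. The difference in share of counts went from 0.351 to 0.209 points with TMM-scaled totals, an alternative added after seeing the data. Over all genes, edgeR called 320 higher and 431 lower without control 1 and at most 3 without any other heart, and with all genes of at least 1 count it called 262 and 341, against 0 in the reported fit. The cause was not tested.

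Log2 fold changes close to 0 changed sign with the scaling. With library totals alone, Rps27 was 0.036, Rsl24d1 0.012, Rps24 0.032, Rps7 0.044, Rpl15 0.027 and Rps14 0.013. With the length offset, Rpl39 was 0.023, Rps27 0.19, Rps27l 0.032, Rps7 0.075, Rpl15 0.059 and Rps14 0.085, and with the length offset and replicate block they were 0.025, 0.19, 0.030, 0.077, 0.060 and 0.088. With the GC offset, Rps24 was 0.010, Rps10 -0.0012, Rpl31 -0.030 and Rps15 -0.0045. Without 1 heart, the values ran from -0.024 to 0.093 for Rps4x, -0.014 to 0.12 for Rpl7l1, -0.049 to 0.075 for Gnb2l1, -0.0072 to 0.11 for Rpl31, -0.079 to 0.16 for Rplp0, -0.092 to 0.062 for Rps3a1, -0.080 to 0.058 for Rps27, -0.078 to 0.055 for Rps24, -0.069 to 0.075 for Rps7 and -0.10 to 0.038 for Rpl15. They ran from -0.62 to 0.20 for Rps3a3, -0.19 to 0.075 for Rps14, -0.27 to 0.013 for Rps3a2, -0.010 to 0.074 for Rpl10, -0.017 to 0.21 for Rpl22l1, -0.026 to 0.25 for Rps15a, -0.11 to 0.38 for Rpl29, -0.0036 to 0.39 for Rps4l, -0.0065 to 0.13 for Rps26, -0.017 to 0.19 for Rplp1 and -0.021 to 0.17 for Rps15. The differences in log2 ratio ran from -0.048 to 0.072 for Rpl7l1 to Rpl7, -0.088 to 0.12 for Rpl22l1 to Rpl22, -0.057 to 0.35 for Rps4l to Rps4x and -0.054 to 0.022 for Rpl36al to Rpl36a. The other genes named kept their sign in every setting.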
